A study of Mus musculus with 8 samples.

Results

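Surface molecules through which cells meet the immune system were followed in adipocytes depleted of Erk3: the small Ly6 antigens Ly6a, Ly6c1 and Ly6e, the adhesion ligands Vcam1 and Icam1, the checkpoint ligand Cd274, the "don't eat me" signal Cd47 and the lipopolysaccharide co-receptor Cd14. They were chosen by symbol among the 18088 genes of the count table, with the siErk3 against siNTC difference of these same libraries already known. Of the 8 genes, 7 were measured and Icam1 was not analysed here, and all 7 passed the filter that kept 17972 genes for testing. The libraries came from mouse 3T3-L1 cells, an embryonic fibroblast line that differentiates into adipocytes in culture, labelled as wildtype differentiated adipocytes. After differentiation the cells were detached and transfected with siRNA at 1.25 nM per cm2, and RNA was taken 48 h later. One group of 4 libraries received siRNA against Erk3 (siErk3) and the other group of 4 a nontargeting sequence (siNTC). There was 1 siRNA condition against Erk3, bought as a commercial pool, and both groups went through detachment and transfection.

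The Ly6 proteins are short, disulfide-rich proteins held on the outer membrane by a glycosylphosphatidylinositol anchor. Ly6a is Sca-1, the antigen used to sort mouse haematopoietic stem cells and adipose progenitors, Ly6c1 is one of the genes behind the monocyte antigen Ly6C, and Ly6e is a broadly expressed relative known as an interferon-inducible gene. VCAM-1 binds the integrin α4β1 on leukocytes, PD-L1 (Cd274) engages PD-1 on T cells, CD47 engages SIRPα on macrophages to restrain engulfment, and CD14 hands bacterial lipopolysaccharide to the TLR4 and MD-2 receptor. Interferons and inflammatory cytokines are textbook inducers of most of these genes, and adipose tissue is a site where leukocytes and fat cells sit side by side.

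Total counts lay between 9854522 and 9943572 per library, so depth was nearly equal. Mapk6, which encodes Erk3, was at 579 ± 18.1 CPM (counts per 1000000 of the library after TMM scaling; SD, n = 4) in siNTC and 69.6 ± 4.80 in siErk3, so the target checked the labels. The labelled cell type was checked on fixed markers: all 14 adipocyte markers were measured and summed to 33243 to 35646 CPM in siNTC and 19654 to 20866 CPM in siErk3. The 7 measured of 11 preadipocyte markers summed to 143 to 149 CPM in siNTC and 49.1 to 52.3 CPM in siErk3. Of 20 leukocyte markers, 5 were measured (Cx3cr1, Csf1r, Itgax, S100a8 and Cd68), and their sum was 65.4 to 72.0 CPM in siNTC and 77.6 to 82.4 CPM in siErk3, most of it Cx3cr1 at means of 57.0 and 67.6 CPM. The 15 others, the pan-leukocyte antigen gene Ptprc among them, were not analysed here. Of 13 endothelial markers, 3 were measured (Egfl7, Flt1 and Pecam1), at a sum of 9.57 to 11.6 CPM in siNTC and 11.8 to 13.6 CPM in siErk3. By gene, 13 adipocyte markers were called lower and 1 higher in the test described below, and 5 preadipocyte markers lower and 2 higher. Of the leukocyte markers 2 were called higher and 0 lower, and of the endothelial markers 1 and 0. Of all genes tested, 24.9% were called higher and 23.8% lower. The part of these marker shifts in the results below was not tested. In bulk RNA more cells carrying a transcript cannot be told apart from more RNA per cell.

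The 3 Ly6 genes lie together in mm10 on chromosome 15, at chr15:74955051-74959905 on the plus strand for Ly6e (ENSMUSG00000022587), chr15:74994877-74998031 on the minus strand for Ly6a (ENSMUSG00000075602) and chr15:75044018-75048830 on the minus strand for Ly6c1 (ENSMUSG00000079018). The whole stretch spans 93.8 kb, with 35.0 kb between Ly6e and Ly6a and 46.0 kb between Ly6a and Ly6c1. Because the genes are relatives, reads of the most alike ones may not be told apart everywhere. The first 120 coding bases of each show how far they differ. The stretch comes from the mm10 genome and the GENCODE M21 annotation, 5′ to 3′ on the coding strand. It is printed for the 3 genes and their close neighbour Ly6c2. Capitals mark bases with no identical partner in Ly6c1 when the whole coding sequences are aligned with gaps. The gaps are not printed, so the positions of Ly6e do not line up with those of Ly6c1.
Ly6c1: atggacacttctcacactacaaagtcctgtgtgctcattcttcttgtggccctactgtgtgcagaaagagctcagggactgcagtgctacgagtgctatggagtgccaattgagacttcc
Ly6c2: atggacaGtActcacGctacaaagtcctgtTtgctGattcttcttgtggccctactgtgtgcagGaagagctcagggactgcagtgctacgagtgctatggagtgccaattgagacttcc
Ly6a: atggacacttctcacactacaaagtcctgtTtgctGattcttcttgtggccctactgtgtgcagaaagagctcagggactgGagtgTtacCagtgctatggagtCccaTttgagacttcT
Ly6e: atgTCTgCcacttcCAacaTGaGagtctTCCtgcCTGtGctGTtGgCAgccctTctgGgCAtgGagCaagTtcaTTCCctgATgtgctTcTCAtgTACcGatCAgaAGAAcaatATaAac

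In this stretch 8 bases of Ly6a, 6 of Ly6c2 and 51 of Ly6e had no identical partner in Ly6c1. For Ly6e these include bases set against a gap. Over the whole aligned coding sequence Ly6c1 and Ly6c2 were 97.7% identical with a longest shared run of 188 bases. Ly6a and Ly6c1 were 81.8% identical with a longest shared run of 48 bases, and Ly6e was 50.1% identical to Ly6c1 and 53.5% to Ly6a, with runs of at most 9 bases. Over all transcripts, 19.0% of the 50-base stretches of Ly6a and 32.8% of those of Ly6c1 also occurred in another gene, mainly in each other and, for Ly6c1, in Ly6c2 (21.5%). No 50-base stretch of Ly6e or Cd14 did, and at most 1.68% of those of Vcam1, Cd274 and Cd47 did. Counts of Ly6a, Ly6c1 and Ly6c2 are therefore uncertain where reads fell in shared stretches. For the other members such stretches were few, but only the strand of the transcripts was searched. On the opposite strand, exons of the antisense gene AC119228.1, not measured here, overlap 511 of the 3622 exon bases of Cd274.

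All 7 measured genes were higher in every siErk3 library than in any siNTC library and all 7 were called higher (edgeR's quasi-likelihood test, Benjamini-Hochberg adjusted p under 0.05). In the same comparison 48.7% of all genes tested were called, 24.9% higher and 23.8% lower, 22.5% had every siErk3 library above every siNTC library, and in 43.2% the groups did not overlap in either direction. The balance of the calls depended on the scaling, with 4470 genes higher and 4275 lower here, 3556 and 5394 with upper-quartile factors, and 5849 and 3139 with library sizes only. Since the genes were picked with this difference known, their values describe it and nothing is read from their calls. They held 0.0178% to 0.0187% of a library's counts in siNTC and 0.184% to 0.20% in siErk3. The sizes differed widely, from 1.86-fold for Cd274 to 88.2-fold for Ly6a.

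**Figure D1:**
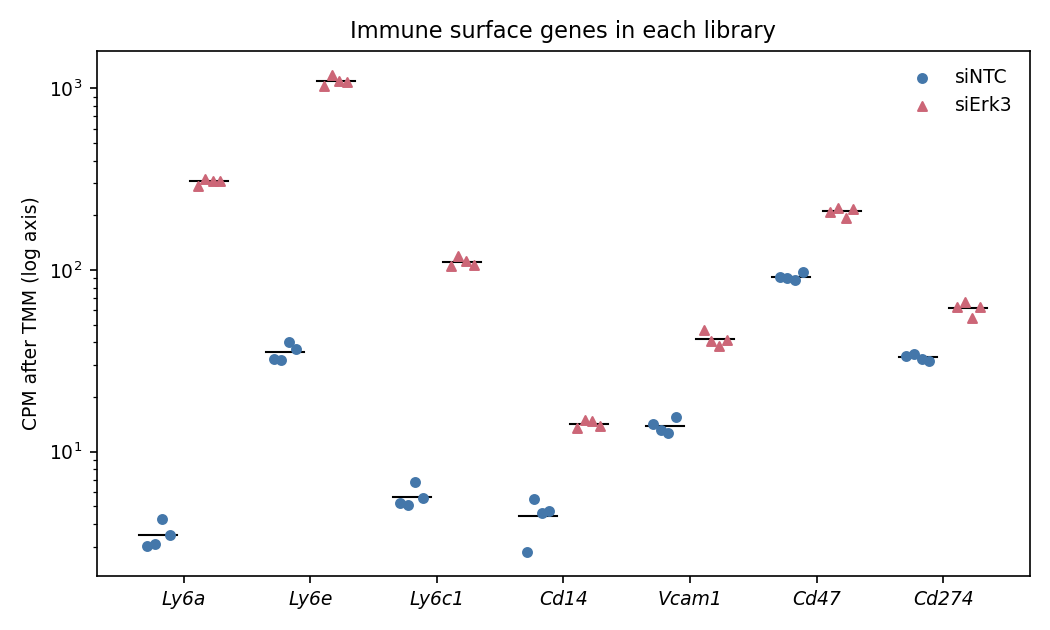
Normalised counts (CPM after TMM, log axis) of the 7 measured genes in each library, blue circles for the 4 siNTC and red triangles for the 4 siErk3 libraries, with black lines at the group means. Every siErk3 point lies above every siNTC point of the same gene, and the gap is widest for Ly6a and narrowest for Cd274.

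Ly6a, the progenitor antigen Sca-1, was low in control adipocytes. It measured 3.02, 3.10, 4.28 and 3.47 CPM in siNTC replicates 1 to 4, from 29 to 41 counts, and 291, 317, 309 and 310 CPM in the siErk3 replicates, from 3008 to 3216 counts. The coefficient of variation was 16.6% in siNTC and 3.72% in siErk3, beside 17.3% and 1.79% that counting alone gives. The lowest siErk3 library was 67.9 times the highest siNTC library. The log2 fold change was 6.46 ± 0.08 (SE), or 88.2-fold with a 95% interval of 78.1 to 99.6, and 50 of the genes tested had a larger rise.

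Ly6e, the highest of the 3 per length in both groups, measured 32.4, 31.8, 40.1 and 36.7 CPM in siNTC. In siErk3 it measured 1032, 1188, 1100 and 1082 CPM, with 10676 to 12035 counts behind these values. The groups were far apart, and the spread within each was 11% and 5.93% of the mean, beside 5.44% and 0.943% that counting alone gives. This was a log2 fold change of 4.96 ± 0.08, or 31.2-fold (28.0 to 34.8). On the transcript strand Ly6e shared no 50-base stretch with another gene. At that length and strand its reads could not be mistaken for those of its neighbours.

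Ly6c1 measured 5.21, 5.06, 6.78 and 5.58 CPM in siNTC and 105, 119, 112 and 107 CPM in siErk3. The log2 fold change was 4.29 ± 0.08, or 19.6-fold (17.4 to 22.1). The share of the 2 genes turned over in counts, which are not per length: per 100 Ly6a counts a control library held 159 to 172 Ly6c1 counts, whereas a depleted library held 34.5 to 37.6, with no overlap. The log2 fold change of Ly6a exceeded that of Ly6c1 by 2.17 and that of Ly6e by 1.5. Together the 3 Ly6 genes made up 21.8% to 27.0% of the counts of the 7 genes in siNTC and 81.2% to 83.5% in siErk3.

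Within each group the Ly6 genes also moved together from library to library, which the choice of genes did not use. Among siNTC libraries replicate 3 was the highest for all 3, by 0.30, 0.26 and 0.19 on the log2 scale above the group mean for Ly6a, Ly6c1 and Ly6e, and among siErk3 libraries replicate 2 was the highest for all 3. The correlation of their deviations from the group means over the 8 libraries was 0.93 to 0.95 for the 3 pairs. It was -0.40 to 0.34 for the 12 pairs of a Ly6 gene with another member, and 0.60 for Vcam1 with Cd47 and 0.56 for Cd274 with Cd47. These are descriptions over 8 libraries that share their depth and scaling, and Ly6a and Ly6c1 also share sequence. Genes outside the members were not set beside them, so whether this pattern is particular to the Ly6 genes was not tested. In siNTC the spread of Ly6a and Ly6c1 was 16.6% and 13.8% of the mean, beside 17.3% and 13.6% that counting alone gives. Their siNTC deviations were thus about as large as counting error.

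**Figure D2:**
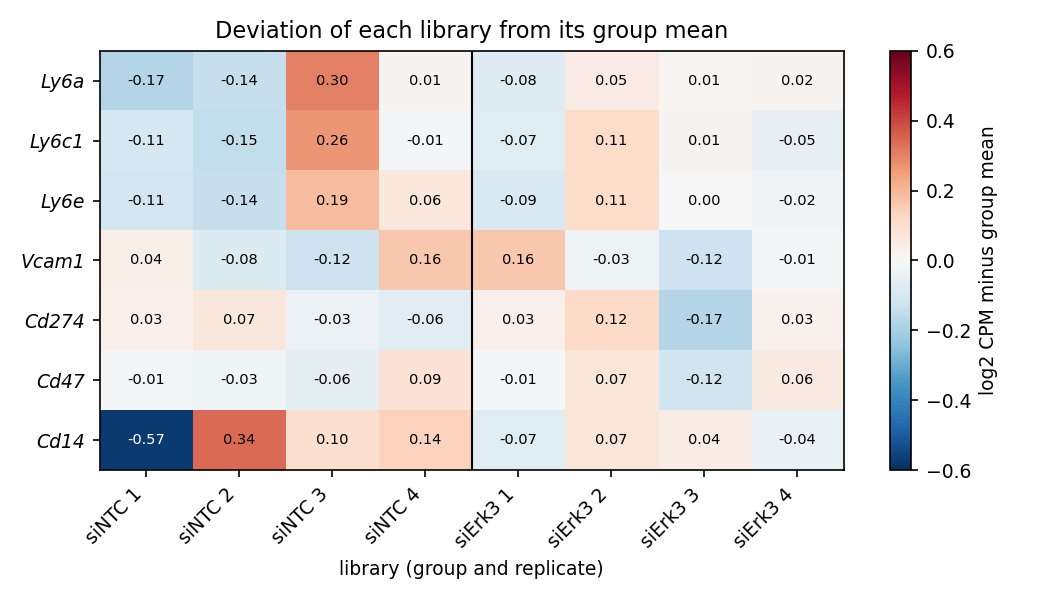
Deviation of log2 CPM from the group mean for each of the 7 genes (rows) in each library (columns, siNTC left and siErk3 right of the line), red for above and blue for below the mean. The Ly6 rows share their pattern, with siNTC 3 at 0.30, 0.26 and 0.19, whereas Cd14 has its own, with siNTC 1 at -0.57.

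The neighbourhood of the Ly6 genes was read next, since these genes lie in 1 cluster. Of 4 other genes tested with a part within 250 kb of Ly6e, 3 were called higher and 1, Jrk, was not (log2 fold change 0.19 ± 0.14). Ly6c2, the near copy of Ly6c1, had 4 to 13 counts in siNTC and 139 to 164 in siErk3, or 0.756 ± 0.420 and 15 ± 1.40 CPM, a log2 fold change of 4.29 ± 0.20 beside 4.29 ± 0.08 for Ly6c1, with which it can share reads. Lynx1, which encodes a Ly6-type modulator of nicotinic receptors, rose from 3.31 ± 0.332 to 6.34 ± 0.332 CPM, a log2 fold change of 0.93 ± 0.15. Them6 rose by 1.04 ± 0.10. The 3 genes that start over 200 kb from Ly6e thus had smaller changes than Ly6e, Ly6a, Ly6c1 and Ly6c2. The window held 20 protein-coding genes besides Ly6e, of which 6 were tested. Those tested within 200 kb were all Ly6 genes, so distance and family cannot be told apart here.

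**Figure D3:**
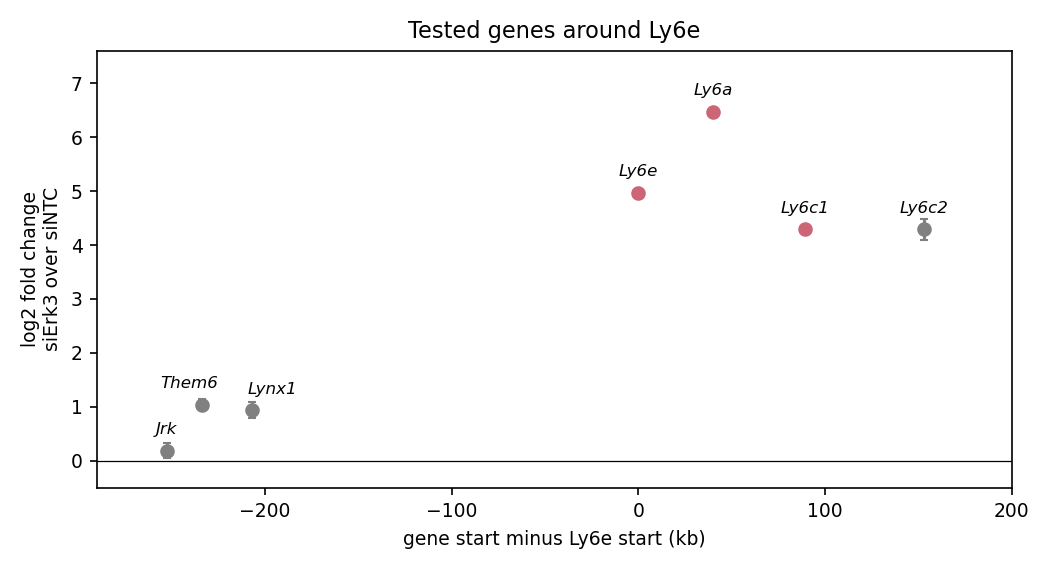
Log2 fold change, siErk3 over siNTC, of the genes tested around Ly6e against the distance of their start from that of Ly6e in kb, with bars of 1 SE and the members in red. Ly6e, Ly6a, Ly6c1 and Ly6c2 sit between 4.29 and 6.46, and Jrk, Them6 and Lynx1, more than 200 kb away, between 0.19 and 1.04.

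The rest of the Ly6 and uPAR family did not share 1 direction. Of 35 other family genes listed, 7 were tested, of which 3 were called higher, 2 lower and 2 were not called, with a median log2 fold change of 0.52 beside 0.00095 over all genes tested. Cd59a, which encodes an inhibitor of the complement attack complex, fell from 25.4 ± 2.15 to 20.2 ± 1.73 CPM, a log2 fold change of -0.33 ± 0.08. Ly6h, a neuronal family member, fell from 15.2 ± 1.39 to 5.92 ± 0.196 CPM (-1.36 ± 0.11), and Cd59b, at 3.13 ± 0.260 and 2.86 ± 0.479 CPM, did not pass the test (-0.13 ± 0.18).

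Vcam1 (ENSMUSG00000027962) lies on chr3:116109949-116129688, minus strand. It measured 14.3, 13.1, 12.7 and 15.6 CPM in siNTC and 46.6, 40.8, 38.2 and 41.3 CPM in siErk3, from 122 to 148 and 392 to 482 counts. The groups did not overlap, and the lowest siErk3 library was 2.45 times the highest siNTC library. Vcam1 thus had a log2 fold change of 1.58 ± 0.08, or 3.0-fold (2.66 to 3.38). The antisense gene Gm43109 overlaps 61 exon bases of Vcam1. Gm43109 went from 1.77 ± 0.143 to 6.07 ± 0.783 CPM, a log2 fold change of 1.77 ± 0.18, and since the library kit does not mark the strand, reads in the overlap cannot be told apart.

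The other ligands for leukocyte adhesion mostly did not pass the test. Of 19 listed, 9 were tested, of which 1 was called higher, 2 lower and 6 were not called, with a median log2 fold change of 0.08. The call of Jam3, a junctional adhesion molecule at 2.71 ± 0.749 and 3.82 ± 0.319 CPM (0.49 ± 0.19, edgeR adjusted p 0.0382), left 0 ligands called higher when siNTC replicate 1, 2 or 3 or siErk3 replicate 1, 2 or 4 was left out, and also with DESeq2. Mcam, the abundant endothelial and mesenchymal adhesion molecule CD146, fell from 237 ± 9.11 to 189 ± 3.21 CPM (-0.33 ± 0.05), and the neural adhesion molecule gene Ncam1 fell from 6.90 ± 1.18 to 3.11 ± 0.445 CPM (-1.15 ± 0.17). Cd44, the hyaluronan receptor, ranged from 34.2 to 122 CPM among siNTC and from 66.5 to 152 CPM among siErk3 libraries, so the groups overlapped, and it was not called (0.13 ± 0.25).

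Genes for the receptors of these ligands, best known from leukocytes, were measured here in the adipocyte cultures. Of 12 integrin and selectin counter-receptor genes, 5 were tested, of which 1 was called higher and 3 lower, with a median log2 fold change of -0.38. Itgb1, the β1 chain that pairs in the VCAM-1 receptor and in many matrix receptors, rose from 196 ± 18.4 to 228 ± 9.45 CPM (0.21 ± 0.06), a call lost under upper-quartile scaling. Itga9, the α9 partner, fell from 20.9 ± 2.43 to 15.2 ± 1.69 CPM (-0.46 ± 0.10). Itgal, the α chain of the ICAM-1 receptor LFA-1, fell from 10.1 ± 0.949 to 3.72 ± 0.532 CPM (-1.44 ± 0.14). Itgax was at 2.47 ± 0.857 and 2.72 ± 0.481 CPM and was not called (0.13 ± 0.23).

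Cd274 (ENSMUSG00000016496), which encodes PD-L1, lies on chr19:29367455-29388095, plus strand. It measured 33.7, 34.6, 32.3 and 31.6 CPM in siNTC and 62.5, 66.3, 54.2 and 62.4 CPM in siErk3. All siErk3 libraries were above all siNTC libraries, the lowest of them by 1.57 times. The log2 fold change was 0.89 ± 0.07, or 1.86-fold (1.69 to 2.04), and Cd274 was the only member under a 2-fold rise. In comparison, 4.11% of all genes tested were called higher with a rise of at least 2-fold. Of the 8 genes tested with a part within 250 kb of Cd274, 4 were called higher and 4 were not. The largest was Jak2, the kinase that acts behind interferon and cytokine receptors, at 53.6 ± 6.68 and 107 ± 2.84 CPM (1.00 ± 0.07), a gene picked out after its values were seen.

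The other B7 and checkpoint ligands were split. Of 22 listed, 13 were tested, of which 5 were called higher, 1 lower and 7 were not called, with a median log2 fold change of 0.0043. Lgals9, which encodes galectin-9, a ligand of the T cell receptor TIM-3, rose from 19.9 ± 2.02 to 287 ± 14.9 CPM (3.85 ± 0.07). Tnfrsf14, the receptor HVEM, rose from 4.2 ± 0.824 to 6.75 ± 1.17 CPM (0.68 ± 0.16), with overlapping libraries. Vsir, the ligand VISTA, fell from 200 ± 6.71 to 167 ± 6.46 CPM (-0.26 ± 0.05). Cmtm4, a protein that stabilises PD-L1, was at 114 ± 1.13 and 106 ± 3.69 CPM and was not called (-0.10 ± 0.05). Cmtm6 of the same list, named after its values were seen, rose from 55.5 ± 1.31 to 73.7 ± 1.25 CPM (0.41 ± 0.05) and was called higher. Without siNTC replicate 4 the count of genes called lower was 2.

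Sequence upstream of the gene start was taken from RefSeq on GRCm38.p6, whose promoter table held entries for 3 of the 7 measured members, Ly6c1, Cd274 and Cd47. The 250 bases before the start are printed for Cd274, at chr19:29367188-29367437 on the plus strand, and for Ly6c1, at chr15:75048838-75049087 on the minus strand, since these members lie at either end of the changes among the 3, with capitals marking the 1 motif match.
Cd274: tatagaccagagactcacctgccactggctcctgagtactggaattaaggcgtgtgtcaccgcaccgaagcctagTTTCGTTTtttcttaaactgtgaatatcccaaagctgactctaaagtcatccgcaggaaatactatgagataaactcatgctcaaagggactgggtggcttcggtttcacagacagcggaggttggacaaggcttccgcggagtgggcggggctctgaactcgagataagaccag
Ly6c1: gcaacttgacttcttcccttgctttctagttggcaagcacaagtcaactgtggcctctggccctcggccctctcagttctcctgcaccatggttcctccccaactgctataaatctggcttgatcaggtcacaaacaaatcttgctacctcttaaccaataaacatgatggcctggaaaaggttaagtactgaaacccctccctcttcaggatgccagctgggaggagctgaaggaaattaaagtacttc

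The windows from 250 bases before to 50 after the start were searched on both strands for 4 motifs, the interferon-stimulated response core (GAAA, any 2 bases, then GAAA), the interferon regulatory factor site AANNGAAA that lies within it, the STAT site TTCNNNGAA and the kappaB motif. The only match in the 3 genes was AANNGAAA at position -175 from the start of Cd274, read on the opposite strand. This motif was in 23.9% of the 32851 windows of the table, the response core in 3.44%, the STAT site in 8.30% and kappaB in 4.51%. The upstream bases differed in composition, with 48.4% G or C and 1 CpG for Ly6c1, 50.4% and 11 CpG for Cd274 and 73.2% and 30 CpG for Cd47, beside medians of 52.4% and 6 CpG over all windows. The Cd47 bases, chr16:49855404-49855653 on the plus strand, precede a start that lies inside the GENCODE locus of Cd47 given below. They do not precede the first base of that locus. A match of letters describes the window and is not evidence of a bound site, nor is the lack of one evidence against it.

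Cd47 (ENSMUSG00000055447) lies on chr16:49800533-49915010, plus strand, and had the highest level per length of the 7 genes in control adipocytes. It measured 91.5, 90.2, 88.4 and 97.7 CPM in siNTC and 208, 221, 193 and 218 CPM in siErk3. The groups lay apart, the lowest siErk3 library at 1.98 times the highest siNTC library. For Cd47 the log2 fold change was 1.19 ± 0.06, or 2.28-fold (2.10 to 2.47). Both genes tested near it, Ift57 and Gm15518, were not called.

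Partners of CD47 and other signals of engulfment went both ways. Of 14 listed, 12 were tested, of which 4 were called higher, 3 lower and 5 were not called, with a median log2 fold change of -0.07. Thbs1, the secreted CD47 ligand thrombospondin-1, rose from 32.0 ± 2.02 to 87.8 ± 2.35 CPM (1.46 ± 0.06), and Axl, a receptor for apoptotic cells, rose from 36.7 ± 3.32 to 99.6 ± 2.79 CPM (1.44 ± 0.06). Mfge8, a bridge between apoptotic cells and integrins, fell from 189 ± 5.51 to 118 ± 2.10 CPM (-0.68 ± 0.05), and Itgb3, the β3 integrin chain, fell from 5.84 ± 0.267 to 3.99 ± 0.493 CPM (-0.55 ± 0.15). Lrp1, a large endocytic receptor at 528 ± 42.0 and 504 ± 27.0 CPM, was not called (-0.07 ± 0.06).

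Cd14 (ENSMUSG00000051439) lies on chr18:36725067-36726798, minus strand, and was a low gene. It measured 2.81, 5.47, 4.59 and 4.73 CPM in siNTC, from 27 to 53 counts, and 13.5, 15, 14.7 and 13.8 CPM in siErk3, from 140 to 152 counts. Replicate 1 was the lowest siNTC library, and the spread was 25.6% of the mean, beside 15.4% that counting alone gives. The groups still did not overlap, with the lowest siErk3 library at 2.47 times the highest siNTC library. The log2 fold change was 1.69 ± 0.14, or 3.23-fold (2.65 to 3.94). This was close to the value of Vcam1, 1.58 ± 0.08.

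The Toll-like receptor genes, partners and adaptors listed with Cd14 were mostly called higher. Of 26 Toll-like receptor, partner and adaptor genes, 15 were tested, of which 10 were called higher, 2 lower and 3 were not called, with a median log2 fold change of 0.43. The count called lower was 1 without siErk3 replicate 1 and 3 without siNTC replicate 4. Tlr3, the receptor of double-stranded RNA, rose from 12.1 ± 2.84 to 83.8 ± 5.79 CPM (2.79 ± 0.10), and Tlr2, the receptor of bacterial lipoproteins, from 0.729 ± 0.268 to 5.85 ± 1.39 CPM (2.98 ± 0.26). Tlr8, of the receptors for single-stranded RNA, fell from 2.14 ± 0.205 to 1.08 ± 0.378 CPM (-0.98 ± 0.26), and the kinase gene Irak1 from 50.6 ± 2.59 to 44.7 ± 1.87 CPM (-0.18 ± 0.06). Ticam1, the adaptor TRIF, was at 21.9 ± 1.10 and 18.9 ± 2.45 CPM and was not called (-0.21 ± 0.09). The genes of the lipopolysaccharide receptor itself were named after their values were seen. Tlr4 rose from 64.7 ± 10.1 to 102 ± 7.28 CPM (0.65 ± 0.08) and was called higher. Ly96, which encodes MD-2, was at 2.71 ± 0.512 and 3.52 ± 1.26 CPM and was not called (0.38 ± 0.24).

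**Figure D4:**
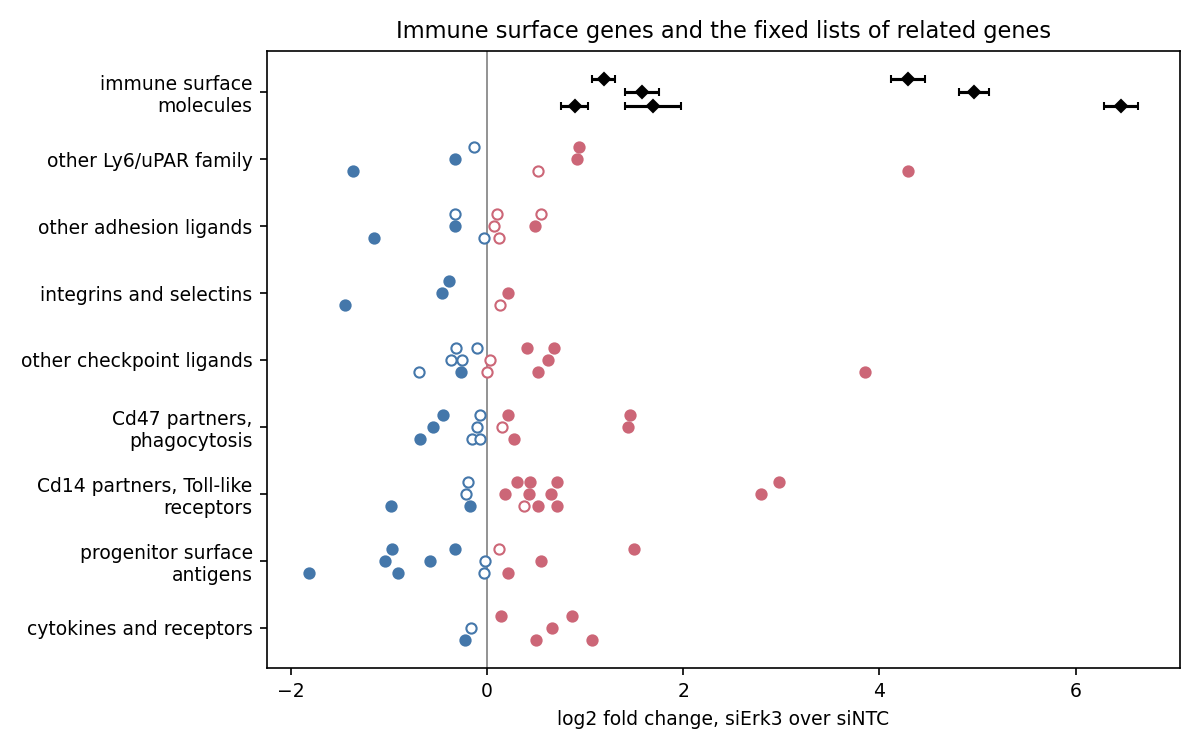
Log2 fold change, siErk3 over siNTC, of the 7 members (black diamonds with 95% intervals) and of the tested genes of 8 lists of related genes (circles, filled where called at adjusted p under 0.05, red above and blue below 0). The members lie between 0.89 and 6.46, whereas each list holds genes on both sides of 0.

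Further lists placed the members among genes of similar use. Of 17 other surface antigens of mesenchymal and adipose progenitor cells, 12 were tested, of which 3 were called higher, 6 lower and 3 were not called, with a median log2 fold change of -0.18. Thy1, the stromal antigen CD90, fell from 6.49 ± 0.297 to 1.84 ± 0.295 CPM (-1.81 ± 0.17), and Nt5e, the ectonucleotidase CD73, from 7.16 ± 1.49 to 3.48 ± 0.519 CPM (-1.04 ± 0.17). Cd9, a tetraspanin, rose from 38.1 ± 3.56 to 56.0 ± 3.28 CPM (0.55 ± 0.07). Ly6a is sorted on together with such antigens. It thus changed in the direction of the 3 called higher and opposite to the 6 called lower, Thy1 among them.

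Of 18 genes for cytokines and receptors known to act upstream of the members, 7 were tested, all of them receptors. Of these, 5 were called higher, 1 lower and 1 was not called, with a median log2 fold change of 0.50. Tnfrsf1b, the TNF receptor 2 gene, rose from 10.6 ± 1.16 to 22.4 ± 1.57 CPM (1.07 ± 0.09), and Ifnar2, a chain of the type I interferon receptor, from 29.5 ± 2.24 to 54.0 ± 2.73 CPM (0.87 ± 0.07). Ifngr1, the ligand-binding chain of the interferon-γ receptor, fell from 88.1 ± 3.62 to 75.6 ± 5.19 CPM (-0.22 ± 0.06), and Il1r1 was not called at 27.4 ± 1.38 and 24.5 ± 1.38 CPM (-0.16 ± 0.07). The 11 cytokine and receptor genes that were not tested, among them the interferon genes, were not analysed here.

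Levels of different genes can be set side by side only per length, so CPM was divided by the length of all annotated exons in kb. In siNTC the order was Cd47 (14.7 ± 0.645 CPM per kb), Ly6e (9.32 ± 1.03), Cd274 (9.12 ± 0.383), Ly6c1 (3.37 ± 0.466), Ly6a (2.88 ± 0.478), Cd14 (2.54 ± 0.652) and Vcam1 (1.57 ± 0.144). Library ranges overlapped between Ly6e and Cd274 and between each neighbouring pair from Ly6c1 down to Vcam1. The genes were measured in the same libraries, so overlapping ranges do not show that such neighbours were equal within a library. The order in siNTC depended on the length used: per kb of the longest transcript Ly6e was at 15.5 and Cd274 at 9.12, Ly6c1 at 6.70 and Ly6a at 3.63, and Vcam1 at 3.41 was above Cd14 at 2.68. In siErk3 the order was Ly6e (290.8 ± 17.2), Ly6a (254.6 ± 9.46), Ly6c1 (66.1 ± 3.77), Cd47 (33.4 ± 1.98), Cd274 (16.9 ± 1.41), Cd14 (8.24 ± 0.402) and Vcam1 (4.70 ± 0.398), and no neighbours overlapped. Among the 17934 genes with a length, Ly6a went from percentile 30.2 to 98.9, Ly6e from 62.6 to 99.1 and Ly6c1 from 34.2 to 94.0, while Vcam1 went from 18.4 to 41.7. Ly6a moved from the fifth place to the second among the members with either length. Vcam1 was the lowest in both groups per kb of all exons, whereas per kb of the longest transcript Cd14 was, at 8.70 beside 10.2 CPM per kb for Vcam1 in siErk3.

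**Figure D5:**
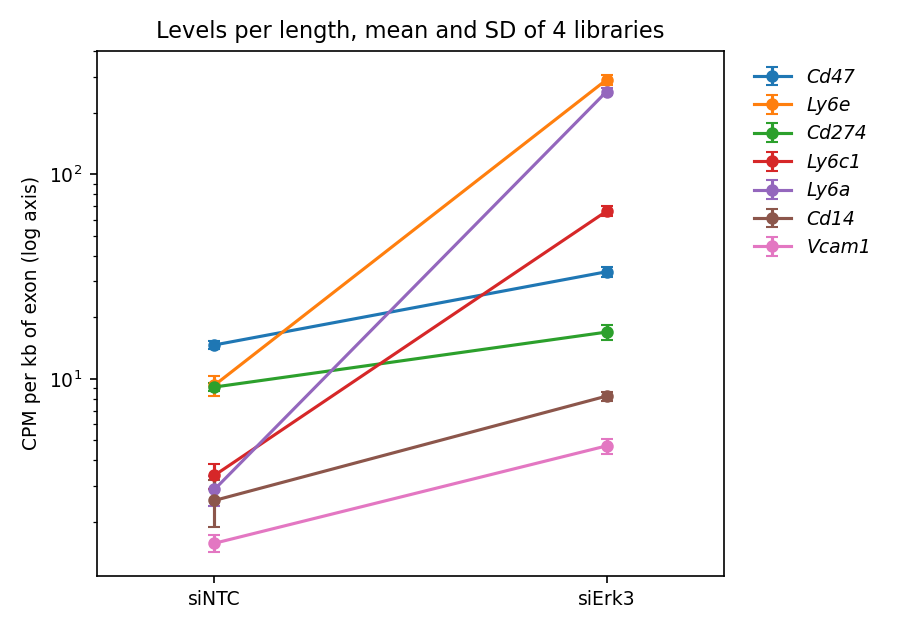
Levels per length (CPM per kb of exon, log axis) of the 7 genes in siNTC and siErk3, as the mean of 4 libraries with bars of 1 SD. The lines of the Ly6 genes cross that of Cd47, and those of Ly6a and Ly6c1 also cross that of Cd274. Ly6e and Ly6a reach 290.8 and 254.6 CPM per kb in siErk3.

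The genes whose log2 CPM followed each member most closely over the 8 libraries were sought among 11403 genes averaging 10 CPM or more. For all 3 Ly6 genes the closest was Lgals3bp, a secreted glycoprotein gene with group means of 141 CPM without and 1425 CPM with Erk3 depletion, with a Pearson r of 0.9998 to 0.9999. The next were Irgm2, an interferon-inducible GTPase gene, and Ly6e for Ly6a, and the other Ly6 genes for Ly6c1 and Ly6e. For Vcam1 they were Slc25a12, Gbp11 and Egr1 (0.996 to 0.998), for Cd274 Gm26669, Zfp36l1 and Stard5 (0.994 to 0.998), for Cd47 Gng12, Cox18 and Pla2g4a (0.998 to 0.9998) and for Cd14 Gm7160, Ampd3 and Yipf3 (0.988 to 0.994). The libraries fall into the 2 treatment groups, so these values mostly describe a gap between the groups that all these genes share, along with depth and scaling.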

How the data were processed

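Polyadenylated RNA was isolated from 3T3-L1 adipocytes and prepared with the NEBNext Ultra kit, which does not mark strand, and was sequenced on a NextSeq system from Illumina. The authors deposited whole-number counts per gene for 8 libraries. The labels name bcl2fastq, FastQC, Bowtie2, edgeR and mm10. The counting tool, annotation and read length are not given in the sources used here. A second table with the authors' fold changes and p-values was not used. Samples were grouped by their GEO titles. Nothing states whether replicates were separate cultures, so p-values cover the spread among these libraries alone, which may be technical. Within each group, pairs of libraries differed by more than sampling noise (mean chi-square per gene 1.97 to 8.30), so each was kept as 1 replicate.

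Here the counts were tested with edgeR 4.0.16 (TMM factors, default filter with a minimum count of 10, quasi-likelihood test, Benjamini-Hochberg adjustment over 17972 genes, no covariate) in R 4.3.3, and the script was tested on simulated data. The common biological coefficient of variation was 6.08%. CPM are on TMM-adjusted library sizes, and intervals are 95%. Counting spreads cover counting error only. DESeq2 1.42.0, limma 3.58.1 (voom), other scalings and filters, a replicate block and leaving out each library were alternatives. Gene positions, exon lengths and coding sequences came from GENCODE M21 on mm10, and shared stretches of 50 bases (75 as the alternative) from its transcripts. The members and lists were chosen with earlier results of these data known. Genes named are the members, Mapk6, and in each list the 2 called genes with the largest rise, the 2 with the largest fall and the most abundant gene not called, at a mean of at least 1 CPM, and the 3 genes most like each member over the libraries. Neighbours, marker genes, Cmtm6, Tlr4, Ly96 and AC119228.1 were named besides.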

Additional observations from a re-analysis of the deposited data

Results flagged for a closer look

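Dixon's criterion was applied to each member, Mapk6 and each list gene named by the rule above. It compared the highest and lowest of the 4 libraries in a group with the rest. Here 5 of 84 groups held a library that stood apart, where about 4.2 are given by chance. No member was among them. Axl was at 95.46 CPM in siErk3 replicate 1, with the others at 100.5 to 101.6. Irak1 was at 41.93 CPM in siErk3 replicate 1, with the others at 45.4 to 45.84. Itga9 was at 24.51 CPM in siNTC replicate 4, with the others at 19.48 to 20.04. Nt5e was at 2.705 CPM in siErk3 replicate 1, with the others at 3.652 to 3.796. Tnfrsf14 was at 5.427 CPM in siNTC replicate 3, with the others at 3.682 to 3.854.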

How the results depend on the processing

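All 7 members were called higher under each of 16 alternatives of scaling, test, filter, block and left-out library, and 6 of 7, without Cd274, when a 2-fold change was also required. Over these the log2 fold change was 6.39 to 6.58 for Ly6a, 4.22 to 4.39 for Ly6c1, 4.89 to 5.05 for Ly6e, 1.51 to 1.67 for Vcam1, 0.82 to 0.98 for Cd274, 1.12 to 1.28 for Cd47 and 1.53 to 1.82 for Cd14. Upper-quartile scaling moved the median of all genes by -0.07 and library sizes only by 0.09 on the log2 scale. With the 2-fold threshold 738 genes were called higher and 409 lower, and in the lists, as higher and lower, 1 and 1 other Ly6 genes, 0 and 1 adhesion ligands, 0 and 1 counter-receptors, 1 and 0 checkpoint ligands, 2 and 0 Cd47 partners, 2 and 0 Cd14 partners, 1 and 2 progenitor antigens and 1 and 0 cytokine receptors. Adhesion ligands called higher were 0 with upper-quartile scaling, DESeq2 or the 5 CPM filter, 2 with library sizes only and 0 to 1 with a library left out. Counter-receptors called higher were 0 with upper-quartile scaling. Checkpoint ligands called lower were 2 with upper-quartile scaling or the 5 CPM filter and 1 to 2 with a library left out. Cd14 partners called lower were 1 with library sizes only and 1 to 3 with a library left out, and cytokine receptors called lower were 2 with upper-quartile scaling and 0 with library sizes only. The cause was not tested.

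With the longest transcript as length, levels per kb in siNTC were 17.5 for Cd47, 15.5 for Ly6e, 6.70 for Ly6c1, 3.63 for Ly6a, 3.41 for Vcam1 and 2.68 for Cd14, and in siErk3 482.4 for Ly6e, 321.2 for Ly6a, 131.4 for Ly6c1, 40.0 for Cd47, 10.2 for Vcam1 and 8.70 for Cd14, since the lengths are shorter. With stretches of 75 bases, 6.33% of Ly6a and 19.1% of Ly6c1 were shared. In the 200 bases before the start alone, the match in Cd274 stayed and AANNGAAA was in 17.0% of windows. Samples with the same replicate number share only a number: their deviations correlated at 0.06, 0.06, 0.23 and -0.02 over 11403 genes, and not every sample correlated best with its own number. With the replicate number as a block, 4501 genes were called higher and 4292 lower, all 7 members were called, and no count of calls moved by over 1.5 times. Depth limits Ly6a, Ly6c1, Ly6c2 and Cd14 in siNTC, where they had under 70 counts per library. It also limits other genes named in the lists. Among these, Tlr2 had 4 to 10 counts per siNTC library, and Tlr8 had 6 to 15 and Thy1 17 to 23 per siErk3 library.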
